A study of Mus musculus with 42 samples.

Results

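The Krüppel-like factors (KLFs) are zinc finger transcription factors, and 9 of them, Klf2, Klf3, Klf4, Klf6, Klf7, Klf9, Klf10, Klf11 and Klf13, were followed in cultured mouse macrophages. They were chosen by symbol, with earlier results of these data known, and matched to the Ensembl identifiers of the count table. They are 9 of the 37310 genes listed there and 9 of its 17 KLF genes. All 9 passed the filter on low counts and are among the 11624 genes tested. The cells were bone-marrow-derived macrophages (BMDM), grown from the marrow of male mice in medium conditioned by L929 cells. The 42 RNA-seq libraries form 14 groups of 3: WT and KO cells, each as Control at 0 h, 2 h and 24 h, and with LPS or palmitate at 2 h and 24 h. LPS is bacterial lipopolysaccharide, the ligand of TLR4, and palmitate is a saturated fatty acid given in an albumin solution. The KO mice carried loxP-flanked Irf5, the gene of interferon regulatory factor 5, and a Cre recombinase driven by the lysozyme promoter (LysM-Cre), so that deletion is limited to cells that express Lyz2. Whether the 3 libraries of a group came from separate mice is not given in the sources used here, so the p-values measure the spread between these libraries, which may be technical.

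KLFs bind GC-rich and CACCC-type sites in DNA through a conserved C-terminal set of zinc fingers, and they differ mostly in the part before it. Klf2, Klf4, Klf6 and Klf7 carry activation domains, Klf3 recruits the CtBP corepressors, and Klf9, Klf10, Klf11 and Klf13 recruit the Sin3a corepressor. In macrophages Klf2 is known as a restraint on inflammatory activation, Klf4 as a factor of monocyte differentiation and alternative activation, and Klf6 as a promoter of inflammatory gene expression. Klf10 and Klf11 are also known as TGF-beta-inducible early genes, and Klf9 as a gene induced by glucocorticoids.

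Library totals lay between 2848793 and 7743442 counts, and levels are given as CPM, counts scaled to library size with the trimmed mean of M values (TMM). In these libraries 3 counts correspond to between 0.387 and 1.05 CPM. Macrophage markers (7 genes, among them Adgre1 and Csf1r) summed to between 4817 and 9008 CPM in every library. Other markers were uneven between libraries: those of granulocyte precursors (7 genes) summed to between 19.3 and 203 CPM, and those of fibroblasts (5 genes) to between 0 and 306 CPM, above 100 CPM in 5 libraries, all labelled KO. Endothelial markers lay between 5.94 and 30.98 CPM, and B cell, T or NK cell, erythroid and dendritic cell markers at or below 6.70 CPM. Irf5 itself was not lower in the libraries labelled KO: its log2 difference, KO minus WT, ran from 0.04 at palmitate 2 h to 0.47 at LPS 24 h, with an adjusted p under 0.05 and a higher level in KO at Control 0 h, Control 2 h, palmitate 24 h and LPS 24 h, and the counts per gene do not show whether single exons are lost. The genotypes are therefore named here as labelled. In bulk RNA, fewer cells of a type and less RNA per cell cannot be told apart.

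The members lie on 9 chromosomes of the mouse genome (build GRCm38, GENCODE vM21). Klf2 is at chr8:72319033-72321656, Klf4 at chr4:55527143-55532466, Klf6 at chr13:5861482-5870394 and Klf7 at chr1:64029447-64122282. Klf3 is at chr5:64803388-64832901, Klf9 at chr19:23141226-23168134, Klf10 at chr15:38291463-38300706, Klf11 at chr12:24651274-24662789 and Klf13 at chr7:63886351-63938915. Klf4, Klf7, Klf10 and Klf13 are on the minus strand. An exon of Klf3 overlaps the antisense gene Gm20033, and exons of Klf7 overlap the antisense genes Gm13748 and Gm26649. Gm13748 has 5 counts over all libraries, and the others were not listed; whether the counting used strand is not stated, so reads of the overlapping parts cannot be told apart.

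Promoters of 8 of the 9 members were found in the RefSeq table (GRCm38.p6), as windows from 250 bases before to 50 bases after the transcript start, and Klf10 had no entry. The GC box, GGGCGG on either strand, occurred in 7 of these 8 windows, all but that of Klf9, against 35.7% of the 32851 windows in the table. The letters CACCC occurred in 5 of 8 windows against 57.5%, and CCAAT in 4 of 8 against 37.4%, both read on either strand. TATAAA and TGACGTCA were in none of the 8, and in 13.6% and 1.79% of all windows. The windows had between 58.3% and 77.7% G and C, at percentiles from 66.3 to 97.9 of all windows. The share of GC boxes was not compared with that of windows equally rich in G and C. The windows of Klf3, Klf7 and Klf11 overlap annotated exons and are not printed. The 3 sequences below belong to members with early changes in level, Klf6 and Klf2, which were higher with LPS at 2 h, and Klf4, which was higher in Control at 2 h than at 0 h, and run from 250 to 31 bases before the start, on chr13:5861239-5861458 (plus strand), chr8:72318812-72319031 (plus strand) and chr4:55532506-55532725 (minus strand). Capitals mark GC boxes and CCAAT on either strand, which in the Klf6 window include 4 CCAAT and 1 GC box, in the Klf2 window 2 GC boxes and in the Klf4 window 4 GC boxes, some sharing letters.
Klf6: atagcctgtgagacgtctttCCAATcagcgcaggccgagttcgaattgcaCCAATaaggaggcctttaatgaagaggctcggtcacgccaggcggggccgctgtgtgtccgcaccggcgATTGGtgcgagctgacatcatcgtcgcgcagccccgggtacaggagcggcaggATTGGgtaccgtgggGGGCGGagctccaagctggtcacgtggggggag
Klf2: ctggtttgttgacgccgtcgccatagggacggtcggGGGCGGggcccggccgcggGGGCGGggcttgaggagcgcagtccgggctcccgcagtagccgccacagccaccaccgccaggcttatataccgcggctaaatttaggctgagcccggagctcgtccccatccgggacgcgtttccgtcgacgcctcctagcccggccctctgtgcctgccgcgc
Klf4: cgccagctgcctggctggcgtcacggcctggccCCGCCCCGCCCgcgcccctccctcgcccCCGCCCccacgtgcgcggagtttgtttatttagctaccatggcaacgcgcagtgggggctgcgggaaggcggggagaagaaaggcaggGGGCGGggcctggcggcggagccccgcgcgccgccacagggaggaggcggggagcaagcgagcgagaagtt
A match of letters is a description of the sequence and not a site shown to be bound.

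Per length of exon, Klf6 was the most abundant member. Averaged over all groups it stood at 59.3 CPM per kb, followed by Klf13 at 25.02, Klf10 at 10.1 and Klf2 at 10.0, Klf3 at 5.09, Klf7 at 3.99, Klf4 at 3.34, Klf9 at 2.22 and Klf11 at 1.43 CPM per kb. Among all tested genes, the mean CPM of Klf6 lay at percentile 95.2 and that of Klf13 at percentile 92.4, while Klf11 lay at percentile 24.1. The order depended on the condition: with LPS at 2 h, Klf7 reached 14.1 CPM per kb, above Klf10 at 6.50 CPM per kb, whereas in Control 0 h Klf7 stood at 2.53 and Klf10 at 9.56 CPM per kb. Klf11 had the fewest counts, between 5 and 95 per library. Klf13 varied least, 1.39-fold between its highest and lowest group mean, and Klf7 most, 8.44-fold.

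**Figure D1:**
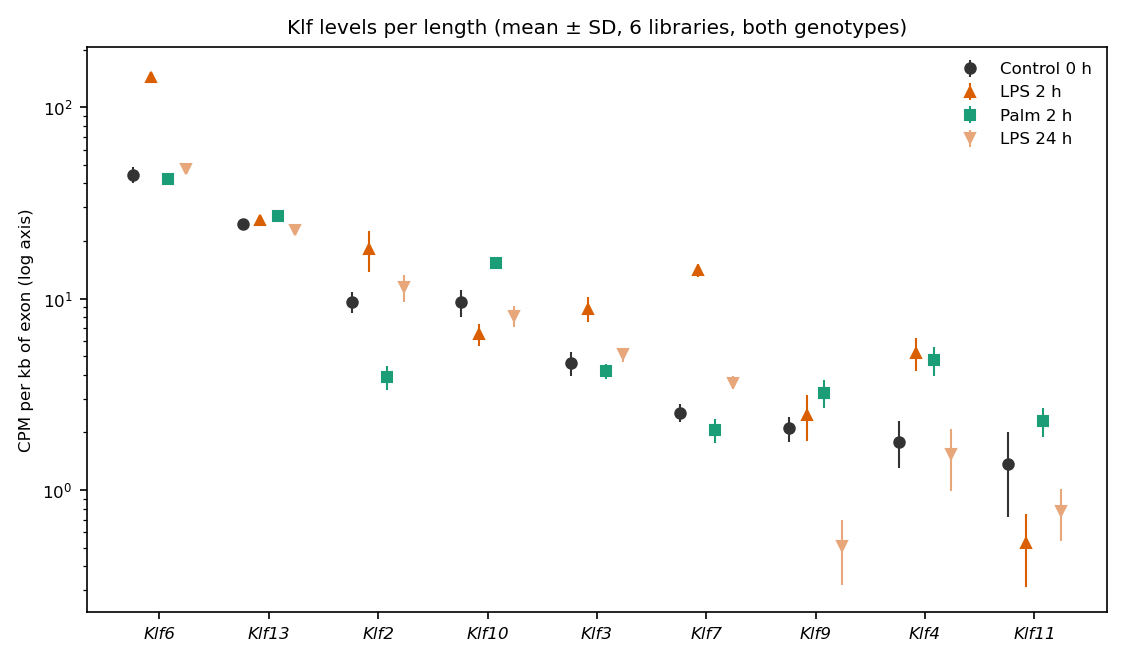
Mean level of each KLF transcript per kb of exon (log axis) in 4 conditions, with the SD over 6 libraries of both genotypes. Klf6 is highest in each condition shown, and Klf7 is the member that climbs most with LPS at 2 h, to 14.1 CPM per kb.

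How the members differed over the 7 conditions is seen first in each library. Klf2, Klf3, Klf6 and Klf7 were highest with LPS at 2 h, Klf10 at palmitate 2 h, Klf11 at palmitate 24 h, and Klf4 and Klf13 in Control 2 h. Klf9 had its lowest values with LPS at 24 h. For Klf3, Klf6 and Klf7 the LPS 2 h libraries lay above those of every other condition, and for Klf7 the LPS 24 h libraries in turn lay above the remaining conditions. For Klf9 the 6 LPS 24 h libraries lay below all others. Among the neighbours in the order of levels, the other steps overlapped except that from Control 2 h to palmitate 2 h in Klf2 and that from palmitate 2 h to palmitate 24 h in Klf4.

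**Figure D2:**
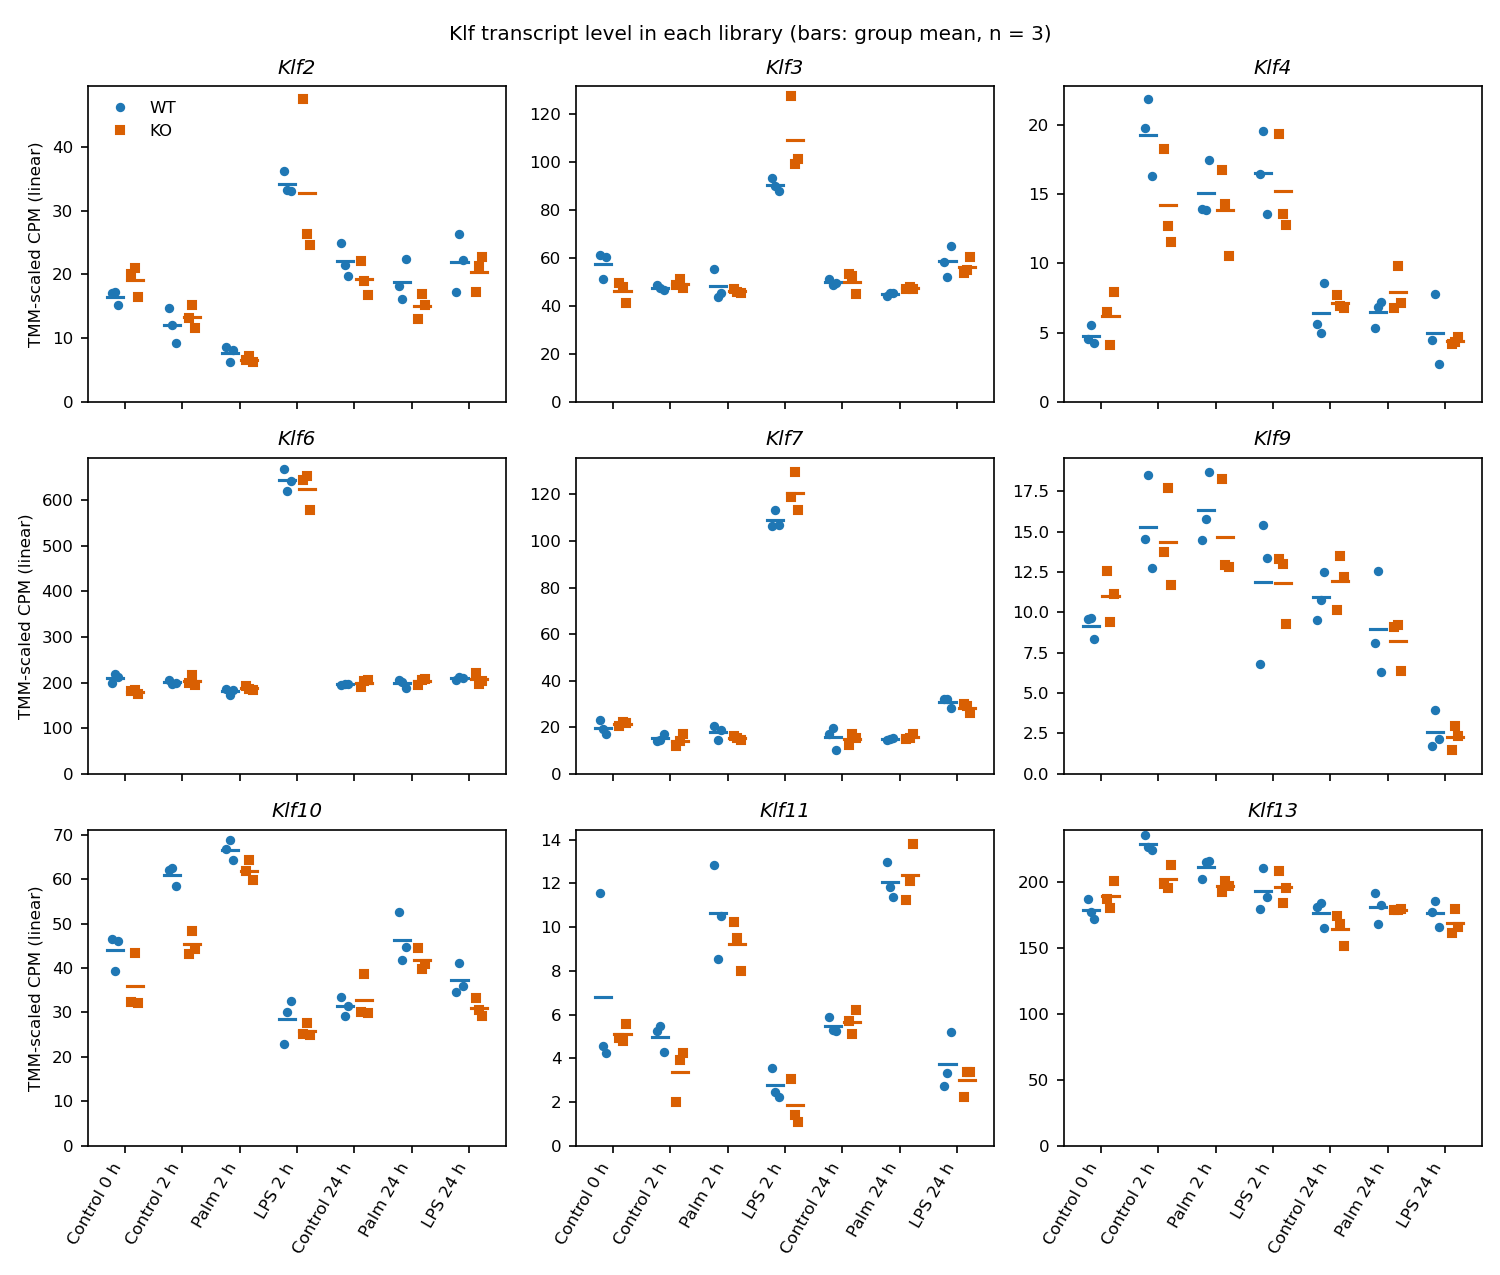
TMM-scaled CPM (linear axis from 0) of the 9 KLF transcripts in each of the 42 libraries, by condition, with WT as circles, KO as squares and bars for the mean of 3. Klf6 and Klf7 are highest with LPS at 2 h in every library, Klf9 is lowest with LPS at 24 h, and Klf11 is highest with palmitate.

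The first comparison asks how LPS changed the members at 2 h. Among the 4 activator-type members, 3 rose with LPS, and Klf3 rose as well, while Klf10, Klf11 and Klf13 fell. This is 7 of 9 members called (4 higher and 3 lower) at an adjusted p under 0.05, where 34.2% of all tested genes were called. The median log2 difference of the members was -0.08 and that of all tested genes -0.02.
Klf7, the member with the largest change, stood at 11.9 (lowest), 14.3 (median) and 17.2 (highest) CPM in Control and at 106, 113 and 130 CPM with LPS. The LPS libraries stood well above the Control libraries without overlap, a 7.73-fold difference (log2 2.95, SE 0.10, adjusted p = 1.72e-30). Klf6 stood at 193.9, 199.7 and 217 CPM in Control and at 578, 643 and 667 CPM with LPS. Its groups did not overlap either, and the difference was 3.13-fold (log2 1.65, SE 0.04, adjusted p = 6.04e-36). Klf2 stood at 9.19, 12.6 and 15.2 CPM in Control and at 24.7, 33.2 and 47.5 CPM with LPS, and rose 2.61-fold (log2 1.38, SE 0.13, adjusted p = 1.75e-12). Its highest value, 47.5 CPM, belonged to KO LPS 2 h library 1, which had the lowest total of all libraries (2848793 counts). The other KO libraries lay below all WT libraries at that condition. Klf3 stood at 46.4, 48.0 and 51.0 CPM in Control and at 87.7, 96.2 and 127 CPM with LPS, a 2.05-fold rise (log2 1.03, SE 0.07, adjusted p = 1.26e-18). Its highest value was also that of KO LPS 2 h library 1. For each of these 4 members all 6 LPS libraries lay above the highest Control library. Counting Klf10 below, groups did not overlap for 5 of 9 members, against 17% of all tested genes. Klf4 did not pass the test, at 11.5, 17.3 and 21.8 CPM in Control and 12.8, 15.0 and 19.5 CPM with LPS (log2 -0.08, SE 0.16, adjusted p = 0.767).

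Among the members that recruit Sin3a, Klf10 fell from 43.3, 53.4 and 62.5 CPM in Control to 22.9, 26.3 and 32.5 CPM with LPS (log2 -0.94, SE 0.09, adjusted p = 2.16e-13). The groups did not overlap. Klf11 stood at 1.99, 4.27 and 5.46 CPM in Control and at 1.08, 2.35 and 3.58 CPM with LPS, and its log2 difference of -0.96 (SE 0.27, adjusted p = 0.00387) came from groups that overlapped and from a low number of counts. In WT or KO cells alone it was not called (-0.91, adjusted p = 0.054, and -1.02, adjusted p = 0.0674). Klf13 fell slightly, from 195, 218 and 235 to 179.6, 191.9 and 210 CPM (log2 -0.14, SE 0.05, adjusted p = 0.0142), and this call was lost without KO LPS 2 h library 2 (adjusted p = 0.0574). That library is 1 of the 5 rich in fibroblast markers, and without all 5 the call was also lost (adjusted p = 0.0668), so these 2 losses are not separate checks. The difference was -0.24 in WT (adjusted p = 0.0056) and -0.05 in KO cells (adjusted p = 0.665). Klf9 did not pass the test (log2 -0.30, SE 0.17, adjusted p = 0.178).

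At 24 h of LPS the members stood differently. Klf9 fell most, 5 of 9 members were called (2 higher and 3 lower), and 52.1% of all tested genes were called in that comparison, so the share of members is near that of all genes. In the same groups, macrophage markers summed to between 7885 and 9008 CPM with LPS and between 5006 and 5158 CPM in Control. Single macrophage markers went both ways. Fcgr1 (log2 3.51), Cd14 (1.49), Adgre1 (1.40), Itgam (0.44) and Csf1r (0.24) were higher, and Mertk (-0.45) and Cd68 (-0.26) were lower. Endothelial markers summed to between 27.67 and 30.98 CPM with LPS and between 8.35 and 16.95 CPM in Control. Granulocyte precursor markers summed to between 30.6 and 63.1 CPM with LPS and between 50.9 and 198 CPM in Control. The part of these marker changes in the differences of the members was not tested. Klf9 stood at 9.55, 11.5 and 13.5 CPM in Control and at 1.49, 2.24 and 3.97 CPM with LPS. No library of either group reached into the other, and the log2 difference was -2.25 (SE 0.21, adjusted p = 2.47e-13), 0.210 of the Control level. Groups did not overlap for 2 of 9 members, Klf9 and Klf7, against 31.7% of all tested genes. Klf7 remained above Control, at 26.1, 29.4 and 32.2 CPM against 10.3, 16.2 and 19.9 CPM (log2 0.95, SE 0.11, adjusted p = 8.06e-11). Klf3 was slightly higher (log2 0.21, SE 0.07, adjusted p = 0.00896) and Klf11 lower (log2 -0.73, SE 0.22, adjusted p = 0.00481), at 2.24, 3.34 and 5.21 CPM against 5.10, 5.51 and 6.23 CPM. In KO cells alone Klf3 was not called (log2 0.18, adjusted p = 0.142), and in WT cells alone Klf11 was not (log2 -0.52, adjusted p = 0.186, against -0.94 in KO). Klf4 was lower (log2 -0.54, SE 0.20, adjusted p = 0.0205), but this was lost without WT Control 24 h library 3 (adjusted p = 0.148) or WT LPS 24 h library 3 (adjusted p = 0.103), without the 5 fibroblast-rich libraries (adjusted p = 0.0562) and in WT cells alone (log2 -0.40, adjusted p = 0.285). Klf2 (log2 0.06), Klf6 (log2 0.07), Klf10 (log2 0.09) and Klf13 (log2 0.02) were not called at 24 h, with adjusted p of 0.751, 0.134, 0.41 and 0.77.

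The change of the LPS difference from 2 h to 24 h was itself tested, and 7 of 9 members passed (2 higher and 5 lower) against 46.3% of all tested genes. The differences shrank for Klf7 by 2.01 (log2, SE 0.15), Klf6 by 1.57 (SE 0.06), Klf2 by 1.33 (SE 0.19) and Klf3 by 0.83 (SE 0.10), whereas that of Klf10 moved up by 1.02 (SE 0.12) on the log2 scale. For Klf9 the difference went further down by 1.95 (SE 0.27). The test of Klf13 (0.16, adjusted p = 0.0418) was lost when any 1 of 9 libraries was left out (WT Control 2 h library 1, WT LPS 2 h library 1 or 3, WT Control 24 h library 3, WT LPS 24 h library 2, KO Control 2 h library 3, KO LPS 2 h library 2, KO Control 24 h library 3 or KO LPS 24 h library 2), with the highest adjusted p at 0.0905, and in KO cells alone it was 0.09 (adjusted p = 0.505). The Klf13 call was also lost with all genes kept (adjusted p = 0.108) and with only the compared libraries fitted (adjusted p = 0.0552). Klf4 and Klf11 were not called.

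**Figure D3:**
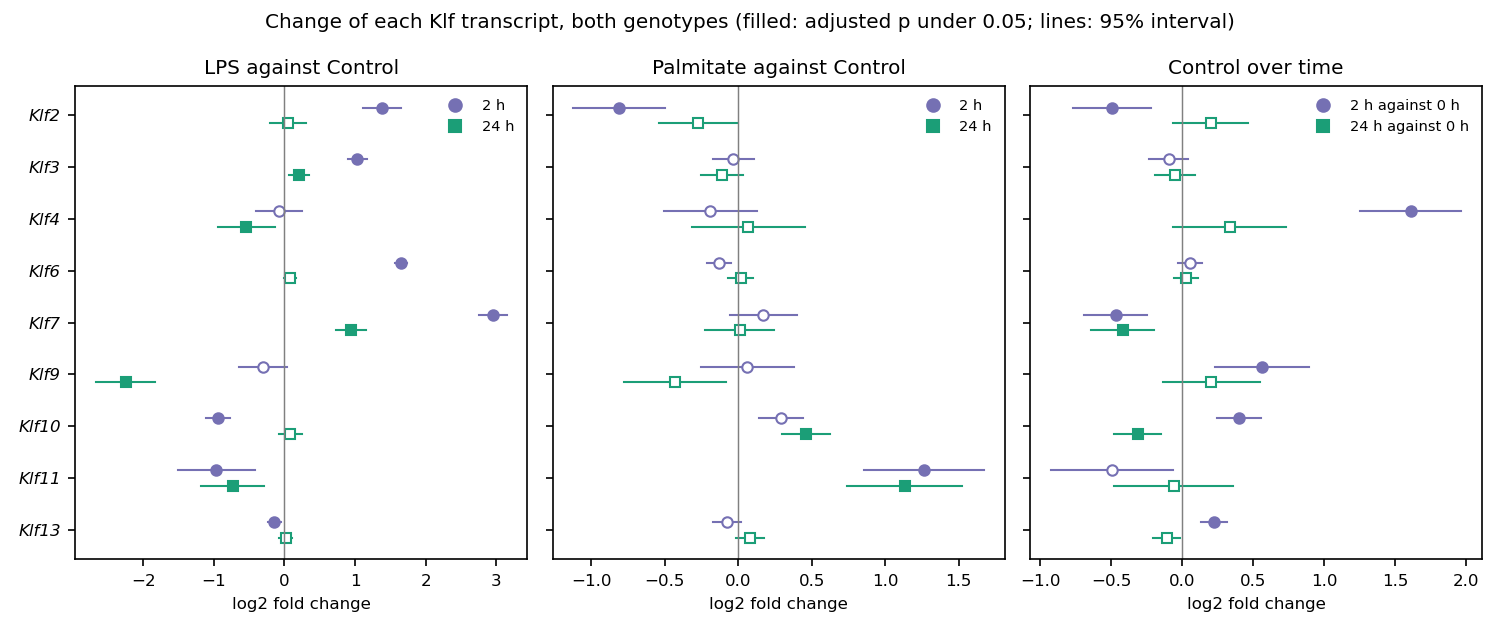
log2 fold change of each KLF transcript with its 95% interval, averaged over both genotypes, for LPS against Control, palmitate against Control and Control over time, at 2 h (circles) and 24 h (squares); filled symbols mark an adjusted p under 0.05. Klf7 (2.95), Klf6 and Klf2 rose with LPS at 2 h, Klf9 fell at 24 h (-2.25), and Klf11 rose with palmitate.

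Palmitate changed fewer genes. At 2 h, 2 of 9 members were called (1 higher and 1 lower) where 0.542% of all tested genes were called, and at 24 h 2 of 9 (both higher) where 2.57% were called. Groups did not overlap for 3 of 9 members at 2 h, against 0.662% of all tested genes. At 24 h they did not overlap for 2 of 9, against 2.17%. Klf11 rose at both times: at 2 h it stood at 1.99, 4.27 and 5.46 CPM in Control and at 7.99, 9.85 and 12.9 CPM with palmitate. At 24 h it stood at 5.10, 5.51 and 6.23 CPM in Control and at 11.3, 12.0 and 13.8 CPM with palmitate. All palmitate libraries lay above all Control libraries at either time, with a 2.40-fold difference at 2 h (log2 1.26, SE 0.20, adjusted p = 0.000123) and a 2.19-fold one at 24 h (log2 1.13, SE 0.19, adjusted p = 9.29e-05). In WT cells alone the 2 h difference was 1.10 (log2, SE 0.28, adjusted p = 0.0794), and in KO cells 1.43 (SE 0.30, adjusted p = 0.0179). Klf2 fell at 2 h, from 9.19, 12.6 and 15.2 CPM to 6.18, 6.84 and 8.58 CPM without overlap (log2 -0.81, SE 0.16, adjusted p = 0.00229). In WT cells alone this was -0.62 (SE 0.22, adjusted p = 0.413). At 24 h the log2 difference of Klf2 was -0.27 (SE 0.13, adjusted p = 0.388).

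Klf10 rose with palmitate at 24 h, from 29.1, 30.8 and 38.6 CPM to 39.8, 43.1 and 52.6 CPM without overlap (log2 0.46, SE 0.08, adjusted p = 0.000153). In KO cells alone the difference was 0.35 (SE 0.11, adjusted p = 0.212). At 2 h it was 0.29 (SE 0.07, adjusted p = 0.0516), just above the threshold, and it passed with DESeq2 (adjusted p = 0.0373), with all genes kept (0.0449) and with only the compared libraries fitted (0.00536). It was not called in either genotype alone, at 0.13 in WT (adjusted p = 0.824) and 0.45 in KO cells (adjusted p = 0.0707). Klf6 stood slightly lower with palmitate at 2 h, at 173, 186 and 191 CPM against 193.9, 199.7 and 217 CPM, and did not pass (log2 -0.13, SE 0.04, adjusted p = 0.229) although the groups did not overlap. Klf3, Klf4, Klf6, Klf7, Klf9 and Klf13 were not called at either time. The change of the palmitate difference from 2 h to 24 h was called for no member by the edgeR test (0 of 9 members, where 1.28% of all genes were called), with 4 members at an unadjusted p under 0.05 and 0 called by DESeq2, which gave 1 member no adjusted p. As a check of the treatment, Plin2, the lipid droplet coat protein, rose with palmitate by 1.02 at 2 h and 2.01 at 24 h on the log2 scale, and Angptl4, a lipase inhibitor induced by fatty acids, by 3.28 and 3.40.

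Set side by side, Klf2 was higher with LPS and lower with palmitate at 2 h, and Klf11 lower with LPS and higher with palmitate. LPS and palmitate share their Control libraries, so they were compared directly. At 2 h 6 of 9 members differed (4 higher and 2 lower with LPS) against 35% of all tested genes, and at 24 h 7 of 9 (3 higher and 4 lower) against 51.8%. At 2 h Klf7, Klf2, Klf6 and Klf3 were 6.88-fold, 4.59-fold, 3.44-fold and 2.10-fold higher with LPS than with palmitate, and Klf10 and Klf11 stood at 0.428 and 0.214 of the palmitate level. At 24 h Klf11 (log2 -1.86, SE 0.20) and Klf9 (log2 -1.82, SE 0.22) were lower with LPS, as were Klf4 (log2 -0.61, SE 0.20) and Klf10 (log2 -0.37, SE 0.08), and Klf7 (log2 0.94, SE 0.11) and Klf3 (log2 0.32, SE 0.07) were higher. Klf2 was also called higher at 24 h (log2 0.33, SE 0.13, adjusted p = 0.0293), and that was lost on leaving out any 1 of 6 libraries, namely WT palmitate 24 h library 1 or 2, WT LPS 24 h library 2, KO palmitate 24 h library 1 and KO LPS 24 h library 2 or 3, with the highest adjusted p at 0.115, and in WT or KO cells alone (adjusted p = 0.366 and 0.052). In WT cells alone Klf4 was not called at 24 h (log2 -0.38, adjusted p = 0.308).

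Control cells also changed between times, and the treatment comparisons above used Control of the same time. What the Control cells received is not given in the sources used here, so time and handling cannot be told apart. Tnf, Il1b and Acod1, which rose with LPS at 2 h, also rose in Control from 0 h to 2 h (log2 2.10, 2.85 and 2.05). From 2 h to 24 h in Control these genes fell (log2 -1.84, -1.44 and -1.39). From 0 h to 2 h, 6 of 9 members were called (4 higher and 2 lower) where 16.7% of all tested genes were called. The groups did not overlap for 1 of 9 members, against 7.21% of all tested genes. Klf4 rose most, from 4.11, 5.03 and 7.92 CPM at 0 h to 11.5, 17.3 and 21.8 CPM at 2 h, so that every 2 h library was above every 0 h library (3.05-fold, log2 1.61, SE 0.18, adjusted p = 3.36e-10). At 24 h it stood at 4.97, 6.86 and 8.596 CPM. The rise was 2.02 (log2, SE 0.25) in WT and 1.201 (SE 0.25) in KO cells, and that difference of -0.81 was not called (adjusted p = 0.207). Klf10 rose from 32.2, 41.3 and 46.5 CPM to 43.3, 53.4 and 62.5 CPM (log2 0.40, SE 0.08, adjusted p = 8e-05), and Klf13 from 172, 184 and 200.3 CPM to 195, 218 and 235 CPM (log2 0.22, SE 0.05, adjusted p = 0.000239). The rise of Klf13 was 0.35 in WT (adjusted p = 5.67e-05) and 0.09 in KO cells (adjusted p = 0.435), and that difference of -0.26 was not called (adjusted p = 0.0938). Klf9 rose too (log2 0.56, SE 0.16, adjusted p = 0.0116), a call lost without WT Control 2 h library 2 (adjusted p = 0.0544) or KO Control 2 h library 2 (adjusted p = 0.0573), and in KO cells alone (log2 0.38, adjusted p = 0.339). Klf2 fell (log2 -0.50, SE 0.14, adjusted p = 0.00663), and so did Klf7 (log2 -0.47, SE 0.11, adjusted p = 0.00119). Klf2 was not called in WT or KO cells alone (log2 -0.47, adjusted p = 0.103, and -0.53, adjusted p = 0.0656), nor Klf7 in WT cells alone (log2 -0.35, adjusted p = 0.13).

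From 2 h to 24 h in Control, 4 of 9 members were called (1 higher and 3 lower) against 18.3% of all tested genes: Klf4 fell by 1.28 (log2, SE 0.18), Klf10 by 0.72 (SE 0.08) and Klf13 by 0.34 (SE 0.05), and Klf2 rose by 0.70 (SE 0.14), though not called in KO cells alone (log2 0.52, adjusted p = 0.0903). Between 0 h and 24 h only 2 of 9 were called (both lower) against 16.5%, namely Klf7 (log2 -0.42, SE 0.11, adjusted p = 0.00497) and Klf10 (log2 -0.32, SE 0.08, adjusted p = 0.00439). The call of Klf7 was lost without WT Control 24 h library 3 (adjusted p = 0.0687), and that of Klf10 without KO Control 0 h library 2 (adjusted p = 0.051). In WT cells alone Klf7 was not called (log2 -0.33, adjusted p = 0.173), and Klf10 was -0.50 in WT (adjusted p = 0.0018) and -0.13 in KO cells (adjusted p = 0.593). Klf11 had 1 outlying value, 11.6 CPM in 1 WT Control 0 h library against 4.23 to 5.58 CPM in the others of that condition, and its difference from 0 h to 2 h was not called (log2 -0.50, SE 0.22, adjusted p = 0.111).

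Few of the member tests were called between genotypes. Over the 63 tests of KO minus WT (9 members in 7 conditions), 3 were called, all lower in the libraries labelled KO. At Control 0 h, where 12.5% of all tested genes were called, 2 of 9 members were lower: Klf6 at 174.5, 181 and 184 CPM in KO against 199.6, 213 and 218 CPM in WT (log2 -0.22, SE 0.06, adjusted p = 0.00801), and Klf3 at 41.2, 47.9 and 49.7 CPM against 51.3, 60.2 and 61.0 CPM (log2 -0.31, SE 0.10, adjusted p = 0.024). In the same groups, fibroblast markers summed to between 42.1 and 69.3 CPM in KO and between 0.529 and 0.905 CPM in WT, and granulocyte precursor markers to between 72.9 and 81.3 CPM in KO and between 47.2 and 54.4 CPM in WT, and their part in these differences was not tested. The Klf6 call was lost without KO Control 0 h library 3 (adjusted p = 0.0723), and the Klf3 call without that library (adjusted p = 0.206), WT Control 0 h library 1 (adjusted p = 0.101) or WT Control 0 h library 3 (adjusted p = 0.108). The Klf3 call was also lost with all genes kept (adjusted p = 0.0554) and with only the compared libraries fitted (adjusted p = 0.0579). At Control 2 h, where 0.49% of all genes were called, Klf10 was lower in KO, at 43.3, 44.3 and 48.3 CPM against 58.4, 62.1 and 62.5 CPM in WT (log2 -0.43, SE 0.11, adjusted p = 0.0455). That call was lost without any 1 of the 6 libraries (adjusted p between 0.0629 and 0.287). There, fibroblast markers summed to between 72.3 and 118 CPM in KO and between 1.16 and 58.7 CPM in WT, and granulocyte precursor markers to between 64.5 and 125 CPM in KO and between 19.3 and 32.9 CPM in WT, and their part was not tested. Leaving out the 5 fibroblast-rich libraries removed KO Control 2 h library 1 from this comparison, and the call was lost (adjusted p = 0.281). Because leaving out any 1 of the 6 libraries lost it, the part of the fibroblast markers cannot be read from that loss.

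In the other 5 conditions no member was called between genotypes by edgeR. The shares of all genes called there were 0.146% for palmitate 2 h, 0.465% for LPS 2 h, 0.12% for Control 24 h, 0.0688% for palmitate 24 h and 0.146% for LPS 24 h. The numbers of members at an unadjusted p under 0.05 were 0, 1, 0, 0 and 1, and DESeq2 called 0 in each, giving no adjusted p to 4 members at palmitate 2 h and 5 at LPS 24 h. No member's response to LPS or palmitate was called different between genotypes in 36 tests by edgeR, with 2 at an unadjusted p under 0.05 and 0 by DESeq2, where 0% of all genes were called for LPS at 2 h, 0.0086% for LPS at 24 h, and 0% for palmitate at 2 h and at 24 h. At LPS 2 h the 95% interval of that difference, on the log2 scale, ran from -0.05 to 0.49 for Klf3, from -0.23 to 0.10 for Klf6 and from -0.16 to 0.65 for Klf7. In the change with time in Control, 0 of 18 tests were called (7 at an unadjusted p under 0.05), against 4.77% of all genes from 0 h to 2 h and 1.83% from 0 h to 24 h. DESeq2 called 1, that of Klf6 from 0 h to 2 h (log2 0.24, adjusted p = 0.0477). It gave no adjusted p to 3 members from 0 h to 2 h and to 3 from 0 h to 24 h.

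**Figure D4:**
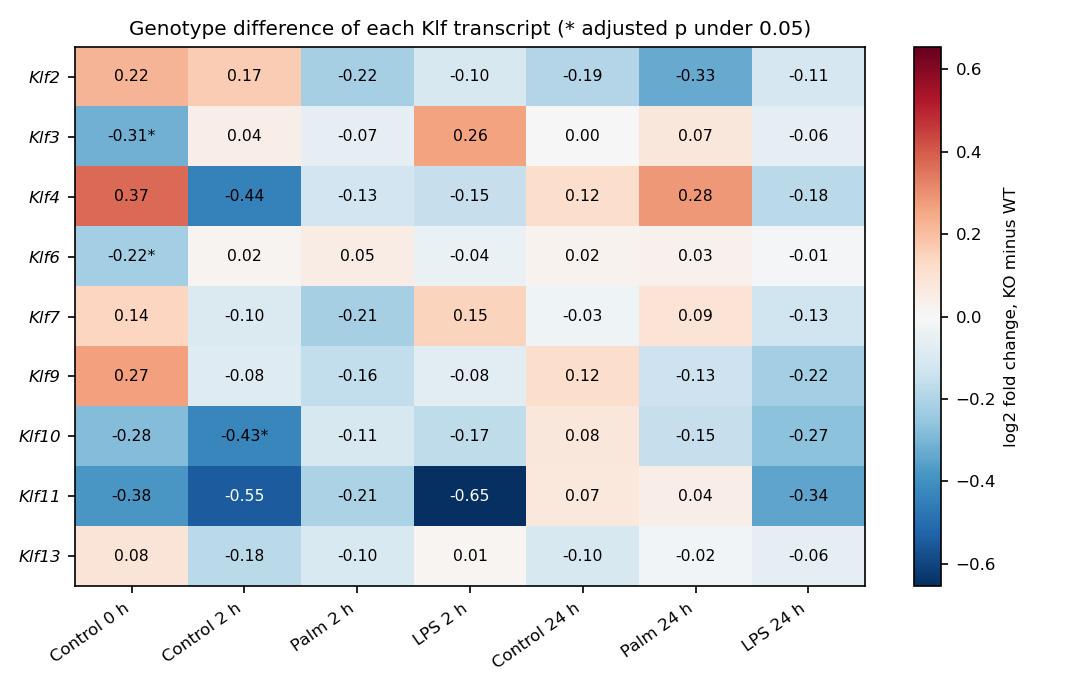
log2 fold change, KO minus WT, of the 9 KLF transcripts in the 7 conditions, n = 3 against 3 libraries, with an asterisk for an adjusted p under 0.05. The 3 tests so marked are Klf3 (-0.31) and Klf6 (-0.22) at Control 0 h and Klf10 (-0.43) at Control 2 h.

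Other genes with ties to the KLFs were counted from lists. These lists were chosen with earlier results of these data known, so the counts below are a description. Of the other 8 KLF genes listed, 2 were tested, and of the 9 SP genes, close relatives of the KLFs, 4 were. Klf16 rose in Control from 2 h to 24 h (log2 0.58, adjusted p = 0.00444), and Klf8 was lower with LPS than with palmitate at 24 h (log2 -1.66, adjusted p = 0.00576). Klf8 had only between 0 and 12 counts per library. Against Control at 24 h it was called neither with LPS (adjusted p = 0.275) nor with palmitate (adjusted p = 0.477). With LPS at 2 h, Sp2 rose (log2 0.44, adjusted p = 9.73e-05) and Sp3 fell (log2 -0.44, adjusted p = 1.58e-08), and Sp3 also stood lower at 24 h (log2 -0.24, adjusted p = 0.000303). With palmitate none of the 4 SP genes was called at either time.
Of the 16 genes for KLF partners, which include the Sin3 and CtBP corepressors, 7 were called with LPS at 2 h (4 higher and 3 lower, median log2 -0.01) and 11 at 24 h (4 higher and 7 lower, median log2 -0.07), beside 34.2% and 52.1% of all tested genes. Among them the Sin3a gene, whose product binds Klf9, Klf10, Klf11 and Klf13, was called higher at 2 h, and Mef2c, a factor upstream of Klf2, fell at 24 h (log2 -1.28, adjusted p = 1.77e-22). Of 8 tested genes known as targets of Klf2 or Klf4, 3 were called with LPS at 2 h (1 higher and 2 lower, median log2 -0.06) and 8 of 8 at 24 h (4 higher and 4 lower, median log2 0.27 against -0.01 over all tested genes), beside the same 34.2% and 52.1%. Thbd, the gene of thrombomodulin, fell by 1.55 at 2 h on the log2 scale, in the comparison in which Klf2 rose.
Of 5 immediate genes of TGF-beta signalling (Smad6, Smad7, Skil, Ski and Tgif1), all 5 rose in Control from 0 h to 2 h, with Smad6 at log2 4.07 and Smad7 at 3.22, and all 5 fell from 2 h to 24 h, beside 16.7% and 18.3% of all tested genes. Klf10 rose and fell in the same comparisons, while Klf11 was not called in either (log2 -0.50 and 0.44). With LPS at 2 h, Klf10 fell, Smad7 and Ski fell, and Skil and Tgif1 rose. Of 5 glucocorticoid-induced genes, Tsc22d3 (log2 -1.45) and Per1 (log2 -1.04) were lower and Sgk1 was higher (log2 0.60) with LPS at 2 h, where Klf9 was not called and 34.2% of all genes were. At 24 h 3 were lower, Fkbp5 (log2 -1.04), Tsc22d3 (log2 -0.41) and Zbtb16 (log2 -4.77, SE 0.65), and Sgk1 was higher (log2 0.74), where Klf9 fell and 52.1% of all genes were called. Zbtb16 had only between 0 and 25 counts per library, so the size of its change is uncertain.

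Across the 14 group means, the genes whose pattern was most like that of each member other than Klf2 were, by Pearson's r, Eml4 for Klf3 (0.976), Chd7 for Klf4 (0.978), Ifnb1 for Klf6 (0.993), Ppp2ca for Klf7 (0.991), Cenpa for Klf9 (0.98), Irf2bp2 for Klf10 (0.921), Engase for Klf11 (0.914) and Tmem189 for Klf13 (0.883). The next 2 were Ccl3 and Lrrc63 for Klf3, Rufy3 and Cyth1 for Klf4, G3bp1 and Ppp1r15a for Klf6, Nfkbiz and Sap30 for Klf7, Qser1 and Bcl2 for Klf9, Arrdc3 and Idh3g for Klf10, Zfp251 and Angptl4 for Klf11, and Tpra1 and Rsbn1l for Klf13. For Klf2, Zeb2 (0.909) and Ticam1 (0.902) were among the 3 most alike. These were searched among 11242 genes, and the points share the libraries of a group. Among pairs of members, Klf3 and Klf7 (0.965), Klf3 and Klf6 (0.957) and Klf6 and Klf7 (0.944) ran most alike, all with their highest values at LPS 2 h, and Klf2 and Klf10 ran opposite (-0.925). For Klf6 the group means were 624 and 643 CPM at LPS 2 h and between 180 and 210 CPM in all other groups. That 1 condition therefore weighs heavily in its r values.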

How the data were processed

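The authors deposited a table of raw counts per Ensembl gene for 42 libraries, made from ribodepleted stranded total RNA. Reads were trimmed with fastp 0.19.11, and STAR 2.7.3a aligned them to mm10 (GRCm38) and counted them, per the study's methods; the submitters' processing notes name both mm10 and mm9. The annotation and use of strand in counting are not given in the sources used here. The table's columns name groups without replicate numbers, so libraries were numbered 1 to 3 by column order and pair nothing. Of 37310 genes, 11624 passed filterByExpr. All 42 libraries were fitted with 1 mean per group by edgeR 4.0.16 quasi-likelihood F tests (R 4.3.3) on TMM-scaled counts, with Benjamini-Hochberg adjustment over all tested genes in each of 24 comparisons and a threshold of 0.05. Treatment and time effects were averaged over both genotypes. SE is the absolute log2 fold change over the square root of F. CPM per kb uses the union of exons from GENCODE vM21. The self-test on simulated counts preceded the fits. Alternatives were DESeq2 1.42.0, other size factors, no filter, only the libraries compared, each genotype alone, leaving out each library, and, added after the data were seen, leaving out libraries with over 100 CPM of fibroblast markers. The 3 libraries of each group differed beyond counting noise. With 3 libraries against 3, an exact permutation test could not go below 0.1. The members and gene lists were chosen with earlier results of these data known. Named genes are the 9 members, the listed checks and families, and the 3 most like genes of each member, 1 of which is not reported here.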

Additional observations from a re-analysis of the deposited data

How the results depend on the processing

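Of the called tests, 30 of 51 kept their side of the threshold under every alternative, and none reversed. No paired analysis was possible because the columns carry no replicate numbers. In WT libraries alone, 1 member was called from 0 h to 24 h in Control, 3 with LPS at 24 h and 0 with palmitate at 2 h. In KO libraries alone, 1 was called with palmitate at 24 h. DESeq2 called 1 test of genotype by time in Control. Under the study's own rule (raw p below 0.05 plus at least a doubling or halving of the level) 0 genotype tests were called. Leaving out 1 library at a time gave between 1 and 4 genotype tests, down to 1 without KO Control 0 h library 3, and between 1 and 2 members from 0 h to 24 h in Control, with 1 without KO Control 0 h library 2 or WT Control 24 h library 3. Without the 5 libraries rich in fibroblast markers, an alternative added after the data were seen, 3 calls were lost: Klf13 with LPS at 2 h (adjusted p = 0.0668), Klf4 with LPS at 24 h (0.0562) and Klf10 between genotypes at Control 2 h (0.281). Each of these 3 calls was also lost on leaving out single libraries. With RLE size factors Klf10 between genotypes (0.0518) and Klf13 in the change of the LPS difference (0.0537) were lost. With all genes kept, Klf3 between genotypes at Control 0 h (0.0554) and Klf13 in the change of the LPS difference (0.108) were lost. Both were also lost with only the compared libraries fitted (0.0579 and 0.0552). The causes were not tested. Low counts limit Klf11 most, with as few as 5 counts in a library, then Klf9 with as few as 10.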
